A study of Danio rerio with 13 samples.

Results

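The question addressed here was whether loss of Pax6b changes the same genes in the same way in 2 endocrine tissues of the zebrafish, the pancreatic endocrine cells (PECs) and the enteroendocrine cells (EECs) of the gut. The value described for each gene is the genotype by tissue interaction, which is the mutant minus wild-type difference in EECs minus the same difference in PECs, on the log2 scale. A positive interaction means that the mutant value, relative to wild type, was higher in EECs than in PECs, and a negative one that it was higher in PECs. All 31901 gene IDs of the count files are members, and the 12 libraries of 4 groups enter the term, out of 13 libraries in the series. The groups are wild-type PECs, mutant PECs, wild-type EECs and mutant EECs, each with 3 libraries from separate cell preparations.

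All cells were GFP-positive cells sorted by FACS from AB-strain fish carrying the Tg(pax6b:GFP) ulg515 transgene, in which the pax6b promoter drives GFP, so that controls and mutants share the transgene and the gate. The mutants were homozygous for the null allele pax6b sa0086 and were recognised by an absent or reduced lens. They came from crosses between heterozygous carriers, and the paper does not state whether the wild-type animals were their siblings. The PECs were taken from the dorsal pancreatic bud of embryos at 27 hours post fertilization (hpf) and the EECs from the gut of larvae at 4 days post fertilization (dpf), and each preparation pooled many animals. The dissociation enzymes also differed between the tissues, so tissue, age and dissociation cannot be told apart in any interaction. Each library holds the RNA of a pool of sorted cells, in which fewer cells of a type and less RNA per cell cannot be told apart.

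Pax6 is a paired-domain and homeodomain transcription factor that acts in the eye, the brain and the endocrine cells of the pancreas and gut. Pancreatic endocrine cells comprise the alpha, beta, delta and epsilon cells, which make glucagon, insulin, somatostatin and ghrelin. Enteroendocrine cells are scattered in the gut epithelium and release peptide hormones such as peptide YY, cholecystokinin, motilin and insulin-like 5. Both tissues use related transcription factors and the same machinery of prohormone processing and granule release.

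The total count on genes ran from 22423938 to 61895597 over the 12 libraries, with a median of 33470771. A detection floor of 3 counts corresponded to between 0.0485 and 0.134 CPM, which are a gene's counts for each 1000000 counts of its library. The libraries carried no molecular identifiers, so this floor covers counting error only. Replicate 3 of wild-type PECs and replicate 3 of mutant PECs stood apart from the other libraries of their groups, with a standard deviation of the log2 difference between 0.644 and 0.786, against 0.39 and 0.428 for the remaining pair of each group. All groups expressed the endocrine defining genes scg3, neurod1 and pax6b in every library. ins was at 5532, 12991 and 13640 CPM in wild-type PECs and at or below 5.76 CPM in every EEC library, whereas pyyb was at 29657, 32919 and 29822 CPM in wild-type EECs and at or below 41.3 CPM in every PEC library.

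The effect of pax6b loss differed between the tissues for a minority of the genes. Of 21067 tested genes, 755 had a called interaction (3.58%, adjusted p under 0.1), 361 of them positive (1.71%) and 394 negative (1.87%). Scaled by library size alone, 266 were positive and 443 negative, and the median interaction of all tested genes was -0.16 in place of 0.01. At an unadjusted p under 0.05 there were 2696 genes. Interactions of single genes are given below as the estimate ± a standard error, on the log2 scale, with the adjusted p of edgeR's quasi-likelihood test. Each standard error was worked back from that test, as the absolute estimate divided by the square root of its F value. It is therefore approximate, and the values of the 2 tissues need not combine into that of the interaction. In the same fit, 1891 genes (8.98%) differed between mutant and wild type in PECs, with 848 that rose (4.03%) and 1043 that fell (4.95%), and 933 (4.43%) differed in EECs, with 416 that rose (1.97%) and 517 that fell (2.45%). Among the 755 genes, 424 had a called effect in PECs alone, of which 201 rose and 223 fell in the mutants. A further 173 had a called effect in EECs alone, with 69 that rose and 104 that fell. In 70 genes both effects were called with opposite signs, 35 in each orientation, and in 34 both were called with the same sign but a different size, larger in PECs for 22 and in EECs for 12. For the remaining 54 neither effect passed alone. Leaving out mutant PEC replicate 1 lowered the 755 calls to 503, and leaving out replicate 3 of both PEC groups, an alternative chosen after the data were seen, raised them to 1644.

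**Figure D1:**
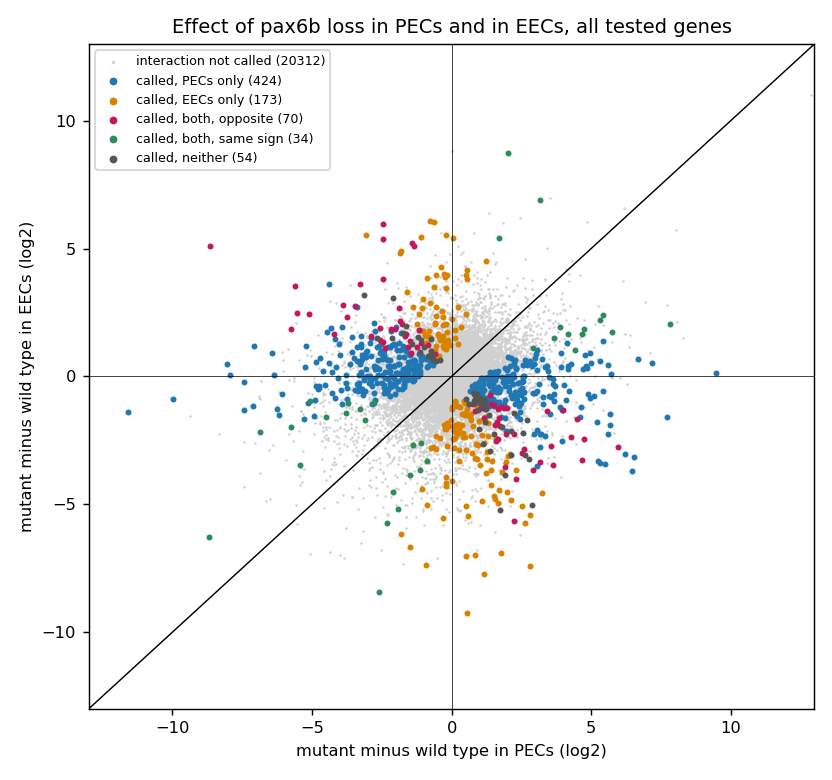
Each point is 1 of 21067 tested genes, with the mutant minus wild-type difference (log2) in PECs on the x axis and in EECs on the y axis. Genes with a called interaction are coloured by the class of their effects. The diagonal marks equal effects, and the 70 genes with opposite called effects lie to the upper left and lower right of the origin.

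An effect called in 1 tissue and not in the other was often not shown to differ between them. Of 1550 genes called in PECs and not in EECs, 424 had a called interaction and 1126 did not. Of 592 genes called in EECs and not in PECs, 173 had one and 419 did not. Among the 271 genes called in both tissues with the same sign, 34 had a called interaction. All 70 genes called with opposite signs did, which is no separate result, since effects of opposite sign add up in the difference. The median standard error of the interaction was 0.73 on the log2 scale, and 0.41 for genes measured in both tissues. In simulated data of the same design, the test found 20 of 100 genes whose effects differed by 2 on the log2 scale and 0 of 100 that differed by 1. The simulation changed 200 genes and gave 21 calls, against 755 in the real data. Its adjusted threshold was therefore stricter, and these shares do not carry over to the real data, where the smallest called interaction was 1.06. With standard errors of this size, an interaction that was not called does not show equal effects.

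Many genes were expressed in 1 tissue alone. A gene was taken as measured in both tissues where its mean over the 6 PEC libraries and its mean over the 6 EEC libraries were each at least 10 CPM. This held for 7126 tested genes, of which 312 had a called interaction (4.38%), 168 positive and 144 negative. Each mean pools both genotypes, so a gene could pass through the genotype in which it was high. insl5a, for example, had group means of 1.95 CPM in wild-type and 30.7 CPM in mutant PECs. The set therefore includes genes that were low in 1 genotype of a tissue. Genes that reached 10 CPM in PECs alone were called in 112 of 1192 cases (9.40%), genes that reached it in EECs alone in 116 of 1199 (9.68%), and the remaining genes in 215 of 11550 (1.86%). The 312 genes held 187 with a called effect in PECs alone, 62 in EECs alone, 26 with opposite effects, 18 with the same sign and 19 with neither. Their median absolute interaction was 1.88 on the log2 scale, against 0.38 over all 7126 genes measured in both tissues. The 312 were chosen by the test of the interaction, so a larger value follows from the choice and is no separate result. Leaving out wild-type PEC replicate 3 raised the 312 to 509, and leaving out mutant PEC replicate 1, mutant EEC replicate 1 or mutant EEC replicate 2 lowered it to 204, 201 and 204.

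The targeted gene and its paralog are given first. pax6b RNA was at 5086, 3660 and 2509 CPM in wild-type and 3761, 3199 and 7530 CPM in mutant PECs, and at 557, 735 and 466 CPM in wild-type and 1028, 1249 and 1473 CPM in mutant EECs. The mutant values lay above all wild-type values in EECs and overlapped with them in PECs. The transcript level does not check the genotype, since an allele can be null without loss of its RNA. The paper reports a check by sequence instead, with the sa0086 allele found in all pax6b reads of the mutants. The interaction of pax6b was 0.95 ± 0.47 (adjusted p = 0.424), and it passed the threshold only with replicate 3 of both PEC groups left out, at 1.75 (adjusted p = 0.00682). pax6a, the second zebrafish Pax6 gene, was at 3.18, 2.33 and 1.87 CPM in wild-type and 25.5, 20.1 and 17.2 CPM in mutant PECs, and at 0.276, 0.447 and 0.0969 CPM in wild-type and 0.443, 0.210 and 0.490 CPM in mutant EECs. It rose by 2.83 (log2) in mutant PECs, with no overlap between the genotypes, and was at or below 0.49 CPM in every EEC library. Its interaction of -2.41 ± 0.73 did not pass (adjusted p = 0.11), though it passed without wild-type EEC replicate 3 (-2.72, adjusted p = 0.0443) and with DESeq2 (adjusted p = 0.0116).

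Among peptide hormone genes, 10 of 32 tested members had a called interaction (31.3%), 5 positive and 5 negative, beside 3.58% of all tested genes. Of the 34 hormone genes matched, 2 were too low to be tested. The median interaction was 0.19 over the 32 (0.03 with scaling by library size alone), and -0.93 with the 3 members that had a group at 0 counts set to the floor. With the pair of most abundant IDs that lack a symbol left out, a choice made after the data were seen, the median was -0.24 and the calls were again 5 in each direction. The effect of pax6b loss was called in at least 1 tissue for 23 of the 32. In PECs 8 rose and 11 fell, beside 4.03% and 4.95% of all tested genes, and in EECs 7 rose and 10 fell, beside 1.97% and 2.45%. The members are described below from those that changed in opposite directions to those whose effects were not shown to differ.

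sst2, a somatostatin gene, moved in opposite directions. It was at 25097, 17982 and 15386 CPM in wild-type and 5358, 4583 and 5631 CPM in mutant PECs, and at 48.7, 74.8 and 168 CPM in wild-type and 367, 411 and 346 CPM in mutant EECs. The genotypes did not overlap in either tissue. sst2 fell by 2.17 on the log2 scale in PECs and rose by 1.87 in EECs, where its level was far lower, and the interaction was 4.04 ± 0.54 (adjusted p = 5.45e-04). sst1.2, the other abundant somatostatin gene of PECs, fell there from 32570, 22962 and 25965 CPM to 3579, 2567 and 4731 CPM. In EECs it was at 24.6, 82.1 and 134 CPM in wild type and 21.6, 8.52 and 68.7 CPM in mutants, which overlap, and its interaction of 1.73 ± 0.90 did not pass (adjusted p = 0.464).

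The peptide YY genes differed between the tissues in mirror image. pyya was at 71.7, 97.6 and 103 CPM in wild-type and 2.46, 2.92 and 4.12 CPM in mutant PECs, and at 148, 301 and 268 CPM in wild-type and 119.6, 116 and 148 CPM in mutant EECs. It fell by 5.07 on the log2 scale in PECs and by 0.96 in EECs, an interaction of 4.11 ± 0.41 (adjusted p = 2.98e-05). pyyb, the most abundant of the hormone genes in wild-type EECs, was at 29657, 32919 and 29822 CPM there and at 3556, 2649 and 3392 CPM in mutant EECs. In PECs it was at 17.1, 20.9 and 41.3 CPM and 16.8, 14.6 and 17.6 CPM, with overlapping genotypes. pyyb fell by 3.32 in EECs and by 0.88 in PECs, and the interaction was -2.44 ± 0.35 (adjusted p = 8.56e-04). npy, which encodes neuropeptide Y of the same peptide family, had a called interaction at low levels, at or below 5.80 CPM in every library (-5.46 ± 1.17, adjusted p = 0.0173).

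The insulin family showed 3 patterns. ins, the insulin gene, fell in PECs from 5532, 12991 and 13640 CPM to 96.5, 66.4 and 114 CPM. In EECs ins was at 1.79, 0.774 and 0.485 CPM in wild type and 5.76, 1.05 and 0.312 CPM in mutants, so its interaction of 8.29 ± 1.16 (adjusted p = 0.00265) rests on a trace level in that tissue. insl5a, the insulin-like 5 gene, was at 1.80, 3.08 and 0.986 CPM in wild-type and 28.1, 29.7 and 34.4 CPM in mutant PECs, and at 2171, 3017 and 7416 CPM in wild-type and 3709, 3714 and 2763 CPM in mutant EECs. It rose by 3.71 (log2) in mutant PECs, to levels under 35 CPM, while the EEC genotypes overlapped (effect -0.38, adjusted p = 0.744), and the interaction was -4.10 ± 0.66 (adjusted p = 0.00272). insl5b, its paralog, fell in both tissues, from 49.1, 184 and 199.5 CPM to 0.945, 3.96 and 3.70 CPM in EECs and from 5.50, 3.25 and 4.47 CPM to 1.40, 0.329 and 1.34 CPM in PECs. Its interaction of -3.42 ± 0.83 (adjusted p = 0.043) was lost without wild-type PEC replicate 2 (-3.28, adjusted p = 0.128), mutant PEC replicate 1 (-3.10, adjusted p = 0.157), mutant PEC replicate 3 (-3.17, adjusted p = 0.122) or wild-type EEC replicate 3 (-3.01, adjusted p = 0.103).

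mlnl, the motilin-like gene, rose in both tissues and more steeply in PECs. It was at 7.21, 7.18 and 3.81 CPM in wild-type and 369, 285 and 297 CPM in mutant PECs, and at 669, 608 and 843 CPM in wild-type and 3589, 5046 and 3075 CPM in mutant EECs. The rise was 5.44 in PECs and 2.42 in EECs on the log2 scale, an interaction of -3.02 ± 0.45 (adjusted p = 0.0013), although the highest levels were those of mutant EECs. ghrl, the ghrelin gene, rose in both tissues as well, from 1098, 989 and 275 CPM to 3109, 1925 and 2786 CPM in PECs and from 136, 180.5 and 179 CPM to 768, 842 and 621 CPM in EECs. Its effects of 1.42 and 2.12 were not shown to differ (0.70 ± 0.57, adjusted p = 0.687), but the interaction passed without wild-type PEC replicate 3 (1.18, adjusted p = 0.0751). adm2a, an adrenomedullin gene, had effects of 1.26 in PECs and 1.85 in EECs, both called, and an interaction of 0.59 ± 0.57 that did not pass (adjusted p = 0.739).

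The proglucagon genes differed from each other. gcgb was at 11320, 9584 and 16399 CPM in wild-type and 19.7, 47.9 and 37.2 CPM in mutant PECs, and at 163, 263 and 49.99 CPM in wild-type and 2.76, 1.68 and 1.70 CPM in mutant EECs. It fell by 8.68 on the log2 scale in PECs and fell by 6.275 in EECs, and its interaction was 2.40 ± 0.62 (adjusted p = 0.0545). That call was lost without mutant PEC replicate 1 (2.13, adjusted p = 0.12), wild-type EEC replicate 1 (2.44, adjusted p = 0.102) or mutant EEC replicate 1 (2.11, adjusted p = 0.152), and its direction held throughout. gcga was at 967, 889.9 and 2655 CPM in wild-type and 2892, 2956 and 3546 CPM in mutant PECs, and at 1052, 1954 and 2343 CPM in wild-type and 1634, 892 and 1382 CPM in mutant EECs. Neither effect was called, 0.90 in PECs and -0.52 in EECs. Its interaction of -1.42 ± 0.49 (adjusted p = 0.188) passed without wild-type PEC replicate 3 (-1.91, adjusted p = 0.0211) or wild-type EEC replicate 1 (-1.69, adjusted p = 0.0962).

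Several abundant gut hormone genes had almost no signal in PECs, which leaves their interaction poorly measured. ccka, the cholecystokinin gene, was between 3651 and 7560 CPM in wild-type EECs and at or below 2.22 CPM in every PEC library (interaction -1.18 ± 1.80, adjusted p = 0.856). penka, a proenkephalin gene, was at 5158, 12880 and 11307 CPM in wild-type and 4357, 5735 and 1742 CPM in mutant EECs, against at most 10.1 CPM in PECs (-3.46 ± 1.26, adjusted p = 0.253). The penka interaction passed without wild-type PEC replicate 2 (-5.19, adjusted p = 0.0315) and with DESeq2 (-3.39, adjusted p = 0.0439). galn, the galanin gene, fell in EECs from 370.2, 475 and 1217 CPM to 28.3, 0.180 and 0.624 CPM, and in PECs it was at most 0.315 CPM. Its interaction did not pass (adjusted p = 0.346), though it passed without mutant EEC replicate 1 (adjusted p = 0.00097) and with DESeq2 (adjusted p = 0.0745). adcyap1a and vipb were likewise below 0.7 CPM in all PEC libraries, and neither had a called interaction. calca, the calcitonin gene, was measurable in both tissues and fell in both, by 1.47 in PECs and 2.60 in EECs, with an interaction of -1.13 ± 0.53 (adjusted p = 0.389).

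**Figure D2:**
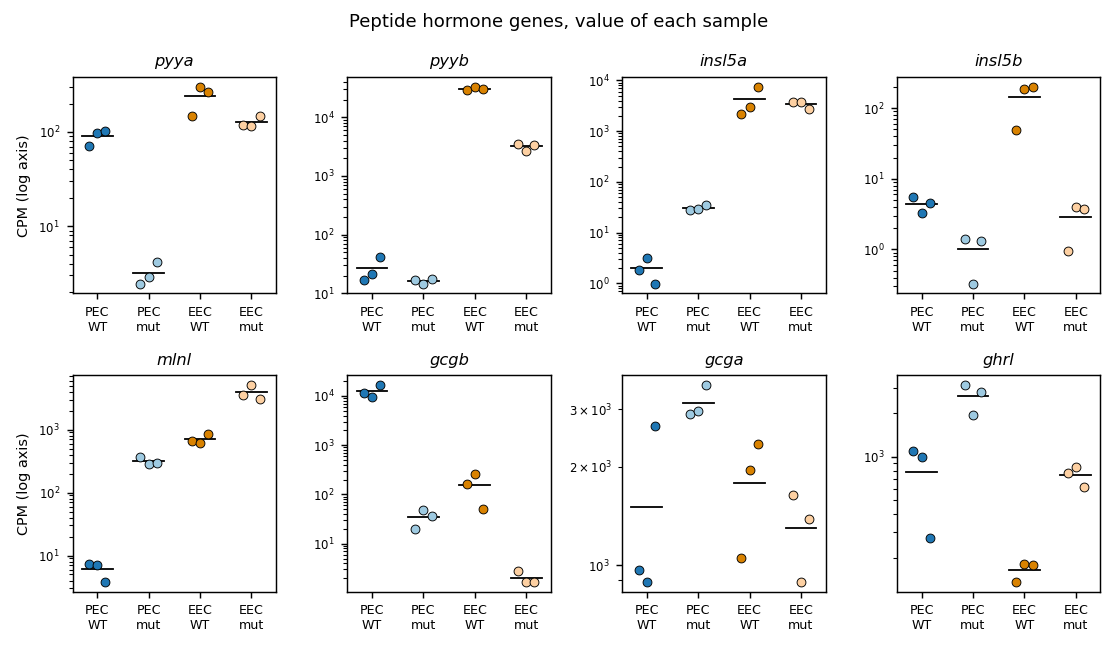
Each point is the level of 1 library in CPM on a log axis, with lines at the mean of the 3 libraries of a group, for 8 peptide hormone genes. pyya fell far more in PECs and pyyb far more in EECs, while mlnl and ghrl were higher in mutants of both tissues.

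Of 43 tested endocrine transcription factors, 9 had a called interaction (20.9%, beside 3.58% of all tested genes), 5 positive and 4 negative, and the median interaction over the 43 was -0.0047 (-0.16 with scaling by library size alone). In PECs 10 of them rose and 11 fell, beside 4.03% and 4.95% of all tested genes, and in EECs 7 rose and 5 fell, beside 1.97% and 2.45%. Most of the called factors had a called effect in PECs alone. nkx6.2, a homeodomain factor of the pancreas and the nervous system, was at 283, 234 and 296 CPM in wild-type and 11.6, 7.24 and 6.11 CPM in mutant PECs, and at 7.69, 3.60 and 3.65 CPM in wild-type and 4.74, 9.66 and 5.17 CPM in mutant EECs. It fell by 5.25 on the log2 scale in PECs and did not change detectably in EECs, an interaction of 5.60 ± 0.52 (adjusted p = 1.81e-05). gata6, a zinc finger factor of endoderm, was at 3.70, 1.54 and 5.57 CPM in wild-type and 66.1, 38.1 and 21.6 CPM in mutant PECs, and at 98.7, 87.9 and 89.5 CPM in wild-type and 133, 143 and 95.1 CPM in mutant EECs. It rose by 3.35 in mutant PECs, with no overlap between the genotypes, towards the level that EECs of both genotypes had (interaction -2.96 ± 0.54, adjusted p = 0.00577).

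insm1b, a zinc finger factor of endocrine differentiation, followed the same form, with 75.6, 72.4 and 102 CPM in wild-type and 492, 406 and 185 CPM in mutant PECs and between 479.6 and 694.9 CPM in all EEC libraries (-1.98 ± 0.42, adjusted p = 0.0151). Its paralog insm1a rose in EECs instead, from 90.7, 112 and 124 CPM to 230.1, 278 and 276 CPM, with overlapping genotypes in PECs, but its interaction of 0.92 ± 0.35 did not pass (adjusted p = 0.248). cdx1b, an intestinal homeodomain factor, fell in PECs from 98.1, 48.9 and 63.4 CPM to 33.5, 20.1 and 26.4 CPM and was between 520.0 and 846.2 CPM in EECs (1.77 ± 0.40, adjusted p = 0.0259). hnf1ba fell in PECs from 126, 79.1 and 122 CPM to 53.7, 51.7 and 61.1 CPM (1.22 ± 0.33, adjusted p = 0.0699), a call lost without wild-type PEC replicate 1, mutant PEC replicate 1 or 2, wild-type EEC replicate 1 or 2, or mutant EEC replicate 1 or 2 (interaction 1.07 to 1.24, adjusted p 0.114 to 0.201).

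For 2 factors the effect was called in EECs alone. etv1, an ETS factor, was at 222, 142 and 255 CPM in wild-type and 258, 257 and 262 CPM in mutant PECs, and at 328, 260.3 and 222 CPM in wild-type and 78.5, 74.0 and 71.8 CPM in mutant EECs. It fell by 1.90 on the log2 scale in EECs, and the interaction was -2.01 ± 0.31 (adjusted p = 0.00178). In PECs the genotypes were apart only by a narrow margin of CPM, with an effect of 0.12 that was not called. CPM lacks the TMM scaling of the fit, whose factors were 0.8725 to 1.126 in wild-type and 1.13 to 1.152 in mutant PECs. This margin is therefore not shown to hold after scaling. neurog3, which in mouse starts endocrine differentiation, was at 8.28, 10.0 and 4.20 CPM in wild-type and 64.8, 96.7 and 65.5 CPM in mutant EECs. It was at or below 0.342 CPM in every PEC library, so the interaction of 4.89 ± 0.80 (adjusted p = 0.00271) has almost no PEC signal on its other side. pdx1, which acts in beta cells and in the gut, fell in both tissues, from 1001, 1040 and 1354 CPM to 25.1, 20.7 and 45.5 CPM in PECs and from 397, 356 and 471 CPM to 22.6, 28.4 and 68.4 CPM in EECs. The fall was larger in PECs (1.99 ± 0.49, adjusted p = 0.042), a call lost without mutant PEC replicate 1 (1.89, adjusted p = 0.12), mutant PEC replicate 2 (1.81, adjusted p = 0.113) or mutant EEC replicate 3 (1.44, adjusted p = 0.103).

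For some abundant factors without a called interaction the 2 estimates were close. neurod1 rose by 0.77 in PECs and 0.77 in EECs, with an interaction of -0.01 ± 0.29 (adjusted p = 0.999). nkx2.2a rose by 0.97 and 1.13 (0.15 ± 0.38, adjusted p = 0.918), rfx6 rose by 1.29 and 1.62 (0.33 ± 0.46, adjusted p = 0.834), and etv5b fell by 1.31 and 1.65 (-0.35 ± 0.32, adjusted p = 0.731). The standard errors of these 4 interactions lay between 0.29 and 0.46. isl1, which marks endocrine cells of both tissues, had effects of 0.17 and 0.12, neither called, and an interaction of -0.05 ± 0.35 (adjusted p = 0.975). Others without a call had estimates further apart, such as -1.71 in PECs and -0.45 in EECs for cdx4 (1.26 ± 0.47, adjusted p = 0.232), -1.08 and -0.31 for fev (0.78 ± 0.34, adjusted p = 0.35) and 0.75 and 1.72 for pax4 (0.97 ± 0.54, adjusted p = 0.494). With replicate 3 of both PEC groups left out, cdx4 (2.02, adjusted p = 0.00643), fev (1.14, adjusted p = 0.0576) and pax4 (1.75, adjusted p = 0.026) passed. cdx4 also passed without wild-type PEC replicate 3 (1.56, adjusted p = 0.0741) or mutant PEC replicate 3 (1.74, adjusted p = 0.0505).

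**Figure D3:**
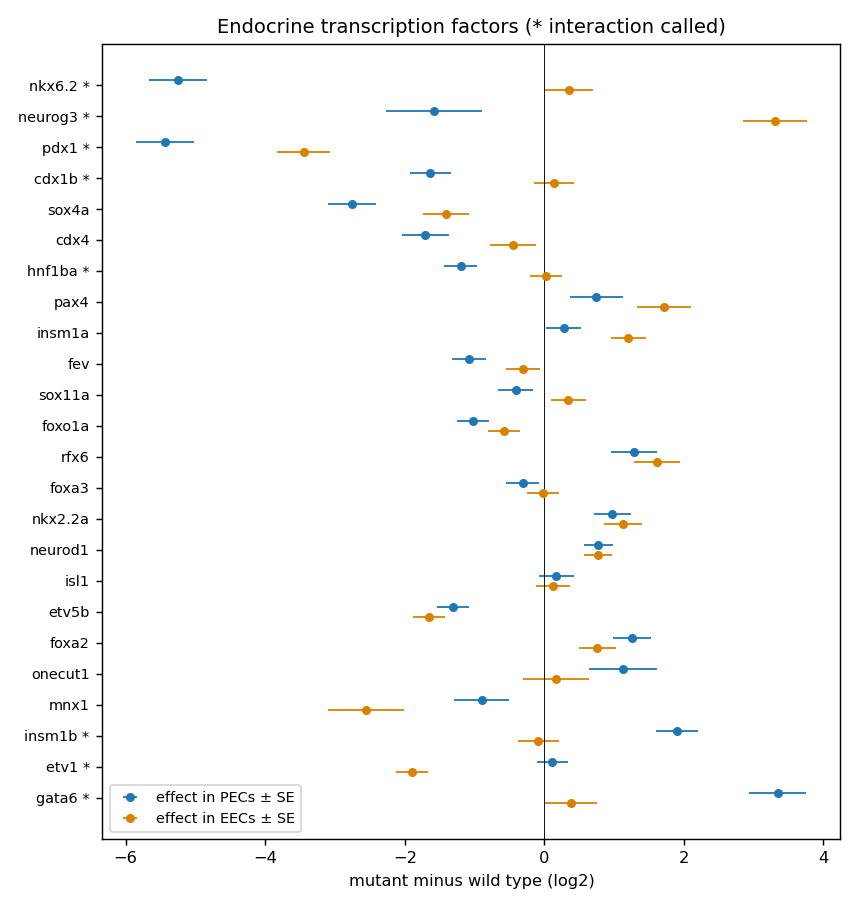
Points are the mutant minus wild-type difference (log2) of each named endocrine transcription factor in PECs and EECs, ordered by the interaction. Error bars are approximate standard errors worked back from the F tests of the 12-library fit. nkx6.2 and gata6 lie at the ends, with large PEC effects and small EEC effects, and neurod1, isl1 and nkx2.2a have overlapping error bars.

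The machinery of hormone production gave no calls, though 0 in a list this short is not far from the share of all tested genes. None of the 16 tested genes of prohormone processing and granins had a called interaction by edgeR's quasi-likelihood test (0 of 16, beside 3.58% of all genes). At an unadjusted p under 0.05 there were 2, beside 2696 of all 21067 tested genes, and DESeq2 and limma voom each called 1. The median interaction of the 16 was -0.35, and 13 of them were measured in both tissues. scg3, the secretogranin III gene and the most abundant of the group, was at 4896, 4376 and 6799 CPM in wild-type and 3016, 3646 and 3744 CPM in mutant PECs, and at 4654, 4604 and 4500 CPM in wild-type and 4645, 4756 and 4865 CPM in mutant EECs. It fell by 0.84 on the log2 scale in PECs and had an effect of -0.001 in EECs, and its interaction of 0.84 ± 0.28 (adjusted p = 0.156) passed with limma voom (0.85, adjusted p = 0.0575) and with DESeq2 (0.80, adjusted p = 0.096). chga, the chromogranin A gene, rose in both tissues, by 2.48 in PECs and 1.22 in EECs (-1.26 ± 0.51, adjusted p = 0.29), and passed without wild-type PEC replicate 3 (-1.88, adjusted p = 0.0204). mboat4, the acyltransferase that activates ghrelin, rose in both tissues, from 0.286, 1.06 and 0.339 CPM to 132, 93.5 and 277 CPM in PECs and from 0.0163, 0.0298 and 0 CPM to 0.193, 1.14 and 1.96 CPM in EECs (-2.31 ± 2.52, adjusted p = 0.778).

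In the vesicle exocytosis list, 3 of 32 members were called (9.38%, beside 3.58%). cplx2, a complexin that binds the SNARE complex, was at 324, 208.5 and 187 CPM in wild-type and 96.4, 102 and 90.7 CPM in mutant PECs, and at 626, 564 and 598 CPM in wild-type and 845, 1051 and 869.8 CPM in mutant EECs. It fell by 1.57 in PECs and had a positive effect of 0.58 in EECs that was not called, an interaction of 2.15 ± 0.36 (adjusted p = 0.00287). rims1a, an active zone scaffold that binds Rab3, rose in EECs from 18.1, 17.9 and 11.9 CPM to 54.5, 56.5 and 76.3 CPM, with a smaller effect of 0.33 in PECs that did not pass (1.58 ± 0.34, adjusted p = 0.0164). None of 23 synaptotagmins, the calcium sensors of release, was called by the same test or by limma voom, and 3 were called by DESeq2. At an unadjusted p under 0.05 by edgeR were 4 of them, beside 2696 of all 21067 tested genes.

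Opposite effects were seen in 70 genes, and in 65 of them the libraries of the 2 genotypes did not overlap in either tissue. These genes were chosen by both effects, so their separation is a description. Of the 70, 26 were measured in both tissues, 15 that fell in PECs and rose in EECs and 11 of the reverse kind. The count of 70 was 43 without mutant PEC replicate 1, 38 without mutant PEC replicate 2 and 36 without mutant EEC replicate 1.

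The first orientation held cebpd, a transcription factor of the C/EBP family. It was at 25.7, 66.4 and 97.0 CPM in wild-type and 1.29, 2.38 and 2.60 CPM in mutant PECs, and at 15.6, 10.7 and 12.1 CPM in wild-type and 114, 66.2 and 35.6 CPM in mutant EECs. Genotypes were apart in both tissues, by 5.11 downward in PECs and 2.45 upward in EECs on the log2 scale, and the interaction was 7.57 ± 0.69 (adjusted p = 1.66e-05). eif4ebp3, a repressor of cap-dependent translation (ENSDARG00000041607, as the symbol has more than 1 ID), was at 41.0, 19.3 and 22.4 CPM in wild-type and 3.49, 4.52 and 2.17 CPM in mutant PECs, and at 3.62, 5.48 and 6.69 CPM in wild-type and 111, 55.3 and 29.6 CPM in mutant EECs, and its interaction was 6.86 ± 0.70 (adjusted p = 3.46e-05). In both genes the mutant EEC values overlapped with those of wild-type PECs.

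nppal, a natriuretic peptide gene, had the largest positive interaction among genes measured in both tissues, 9.16 ± 1.26 (adjusted p = 0.00274). It was at 2853, 2266 and 2232 CPM in wild-type and 53.0, 57.7 and 67.7 CPM in mutant PECs, and at 2.10, 3.96 and 0.291 CPM in wild-type and 42.5, 27.9 and 3.43 CPM in mutant EECs. The genotypes were far apart in PECs, and in EECs the lowest mutant value lay below the highest wild-type value. nppal reached a mean of 10 CPM in EECs only through the mutants. gulp1, an adaptor of engulfment, rose in EECs from 0.0813, 0.685 and 0.0646 CPM to 8.58, 14.8 and 11.1 CPM and fell in PECs from 1.95, 2.29 and 8.51 CPM to 1.35, 0.370 and 0.795 CPM (7.87 ± 1.13, adjusted p = 9.37e-04). PPP1R3G, which targets protein phosphatase 1 to glycogen, fell in PECs from 10.2, 14.1 and 12.3 CPM to 0.888, 0.534 and 1.48 CPM and rose in EECs from 0.439, 0.714 and 0.0646 CPM to 4.14, 2.88 and 1.56 CPM (6.69 ± 0.93, adjusted p = 7.13e-04).

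In the reverse orientation, hoxc3a and itga6l are given first, and each was measured in both tissues. hoxc3a, a Hox gene, was at 8.96, 9.27 and 14.3 CPM in wild-type and 39.7, 41.3 and 58.2 CPM in mutant PECs, and at 43.5, 74.6 and 82.6 CPM in wild-type and 24.4, 27.3 and 37.7 CPM in mutant EECs. It rose by 1.89 in PECs and fell by 1.24 in EECs (-3.12 ± 0.41, adjusted p = 4.57e-04). Its paralog hoxc5a rose in PECs from 2.68, 3.69 and 2.92 CPM to 11.2, 10.8 and 31.7 CPM and was at or below 2.57 CPM in EECs (-3.35 ± 0.74, adjusted p = 0.0219). hoxc3a and hoxc5a were the 2 called members among 47 tested Hox genes (4.26%, beside 3.58% of all tested genes). itga6l, an integrin alpha chain, was at 5.78, 3.97 and 10.5 CPM in wild-type and 21.8, 32.1 and 20.25 CPM in mutant PECs, and at 9.93, 13.1 and 23.2 CPM in wild-type and 7.92, 4.83 and 2.54 CPM in mutant EECs, with no overlap in either tissue (-3.33 ± 0.65, adjusted p = 0.00988).

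The next genes of this orientation were low in at least 1 tissue. krt94, a keratin gene, was at 0.755, 1.09 and 1.94 CPM in wild-type and 16.7, 8.76 and 13.6 CPM in mutant PECs, and at 1.24, 3.39 and 2.58 CPM in wild-type and 0.0193, 0.390 and 0.357 CPM in mutant EECs (-6.51 ± 1.01, adjusted p = 0.00191). sox1, a SoxB1 factor of the nervous system, rose in PECs from 1.09, 0.616 and 1.26 CPM to 9.28, 11.1 and 5.68 CPM and was at or below 0.228 CPM in EECs (-6.58 ± 1.2, adjusted p = 0.00579). sned1, an extracellular matrix gene, rose in PECs from 0.417, 0.376 and 0.339 CPM to 4.95, 5.63 and 5.50 CPM and fell in EECs from 0.374, 1.70 and 0.291 CPM to 0.212, 0.0300 and 0.0892 CPM (-6.30 ± 1.12, adjusted p = 0.00482). plin1, the perilipin gene of lipid droplets, and cxcl8b.1, a chemokine gene, had opposite effects at levels at or below 6.24 CPM. In plin1 the interaction was -7.09 ± 1.43 (adjusted p = 0.0118). cxcl8b.1 had 0 counts in all 3 wild-type PEC libraries and was at 0.0573, 0 and 0.217 CPM in mutant PECs, where the genotypes overlapped. Its rise in PECs lay near the detection floor, and only the test of the interaction is given (adjusted p = 0.0235). That call was lost without mutant PEC replicate 3 (adjusted p = 0.116).

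**Figure D4:**
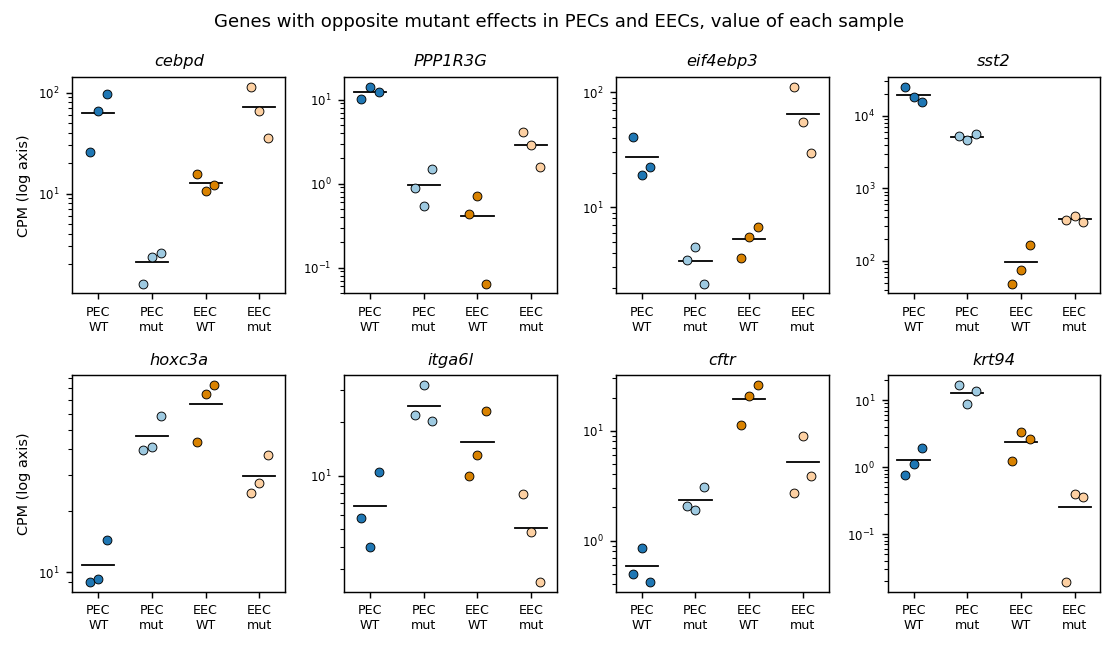
Each point is the level of 1 library in CPM on a log axis, with lines at group means, for 8 genes whose mutant effects were called with opposite signs. The upper row fell in mutant PECs and rose in mutant EECs, and the lower row shows the reverse.

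Beyond the opposite genes, the largest positive interactions among genes measured in both tissues belonged to genes that fell in PECs and were not called in EECs. rorcb, a retinoid-related orphan nuclear receptor, was at 70.0, 80.4 and 83.4 CPM in wild-type and 3.81, 2.67 and 3.00 CPM in mutant PECs, and at 379, 190.4 and 164 CPM in wild-type and 507, 268 and 329 CPM in mutant EECs. It fell by 4.86 in PECs, and the interaction was 5.40 ± 0.46 (adjusted p = 1.65e-05). ntf3, which encodes neurotrophin 3, fell in PECs from 22.3, 25.2 and 15.0 CPM to 0.0286, 0.288 and 0.579 CPM and was between 12.1 and 44.0 CPM in EECs with overlapping genotypes (7.34 ± 0.85, adjusted p = 1.08e-04). kcnip3b, an auxiliary subunit of A-type potassium channels, fell in PECs from 25.8, 17.7 and 76.6 CPM to 1.17, 1.48 and 3.69 CPM and was between 16.5 and 30.2 CPM in EECs (4.89 ± 0.67, adjusted p = 6.27e-04). trhr (ENSDARG00000076546, 1 of the IDs with this symbol), a receptor for thyrotropin-releasing hormone, fell in PECs from 15.1, 26.6 and 13.8 CPM to 6.76, 0.946 and 2.06 CPM, an interaction of 4.88 ± 1.14 (adjusted p = 0.038) that was lost without mutant PEC replicate 3 (4.66, adjusted p = 0.112).

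Of the 8 largest negative interactions among genes measured in both tissues, 4 belonged to genes called in PECs alone, insl5a among them. These 4 reached a mean of 10 CPM in PECs only through the mutants, being at or below 3.08 CPM in every wild-type PEC library. atp8b3, a phospholipid flippase, was at 1.22, 0.923 and 0.436 CPM in wild-type and 57.03, 56.1 and 35.9 CPM in mutant PECs, and at 72.8, 64.5 and 68.9 CPM in wild-type and 59.5, 155 and 74.5 CPM in mutant EECs, an interaction of -5.16 ± 0.60 (adjusted p = 1.08e-04). cfd, which encodes complement factor D, was at 1.02, 1.33 and 0 CPM in wild-type and 21.2, 22.5 and 38.4 CPM in mutant PECs and between 35.3 and 86.3 CPM in EECs (-5.57 ± 1.12, adjusted p = 0.0178). ptgs2a, a cyclooxygenase of prostaglandin synthesis, was at 0.0521, 0 and 1.96 CPM in wild-type and 21.5, 22.03 and 24.3 CPM in mutant PECs and between 14.6 and 34.0 CPM in EECs. Its interaction of -4.52 ± 1.11 (adjusted p = 0.0492) was lost without any of the 3 mutant PEC libraries, wild-type EEC replicate 1 or any of the 3 mutant EEC libraries (interaction -4.56 to -4.38, adjusted p 0.101 to 0.138). plcxd3, a phospholipase C domain gene, rose in both tissues, by 4.43 in PECs from 1.98, 2.63 and 2.62 CPM to 52.3, 58.3 and 71.8 CPM, and by 1.02 in EECs from 168, 142 and 146 CPM to 343, 279.7 and 340.4 CPM (-3.40 ± 0.32, adjusted p = 1.81e-05). The plcxd3 values were close within every group, and all 4 groups were apart.

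A pair of genes in this set had a called effect in EECs alone. mki67, which encodes the proliferation antigen Ki-67, was at 6.30, 8.31 and 12.7 CPM in wild-type and 13.3, 17.2 and 7.30 CPM in mutant PECs, and at 26.3, 20.8 and 31.8 CPM in wild-type and 3.59, 2.04 and 2.72 CPM in mutant EECs. It fell by 3.30 in EECs and its PEC genotypes overlapped, an interaction of -3.57 ± 0.54 (adjusted p = 0.00165). phf24, a PHD finger gene, fell by 3.00 in EECs, from 18.5, 27.4 and 44.5 CPM to 7.19, 1.65 and 2.90 CPM (interaction -3.75 ± 0.62, adjusted p = 0.00275). Its PEC values were 21.7, 21.3 and 27.5 CPM in wild type and 42.1, 47.1 and 49.1 CPM in mutants. These did not overlap, but the PEC effect of 0.75 did not pass the test.

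Genes of electrical activity and ion transport held calls in both directions. Of 96 potassium and HCN channel genes, 6 were called (6.25%, beside 3.58% of all tested genes), 3 positive and 3 negative. Besides kcnip3b, kcnip1b fell in PECs from 87.8, 60.5 and 102 CPM to 4.84, 6.70 and 7.56 CPM and had an effect of -1.09 in EECs that did not pass (2.84 ± 0.48, adjusted p = 0.00338). Of 40 voltage-gated calcium channel subunit genes, 4 were called (10.0%, beside 3.58%), 1 positive and 3 negative, whereas limma voom called 0 of the 40 and DESeq2 called 6. By edgeR 10 were at an unadjusted p under 0.05, beside 2696 of all 21067 tested genes. cacna1da, a pore-forming L-type subunit, fell in EECs from 3.12, 4.20 and 3.17 CPM to 0.366, 0.420 and 0.803 CPM and overlapped between genotypes in PECs, at 27.9, 26.0 and 48.9 CPM and 43.8, 22.8 and 14.2 CPM. Its interaction of -2.28 ± 0.57 (adjusted p = 0.0468) was lost without wild-type PEC replicate 1 or 2, mutant PEC replicate 1 or mutant EEC replicate 1 or 2 (interaction -2.18 to -1.72, adjusted p 0.12 to 0.174). cacna2d4, an auxiliary alpha2delta subunit, rose in EECs from 13.7, 22.6 and 7.95 CPM to 59.4, 50.8 and 23.3 CPM and fell at trace levels in PECs (3.27 ± 0.69, adjusted p = 0.0164), and its call was lost with limma voom (3.43, adjusted p = 0.178), as was that of cacna1da (-2.19, adjusted p = 0.26).

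The list of SLC26 anion exchangers and CFTR had 4 called of 12 (33.3%, beside 3.58% of all genes), 3 positive and 1 negative, with a median interaction of -0.50. With scaling by library size alone 1 was positive and 1 negative, and limma voom called 2. None of its 4 called members was measured in both tissues. cftr, the chloride channel of cystic fibrosis, was at 0.495, 0.855 and 0.420 CPM in wild-type and 2.06, 1.89 and 3.07 CPM in mutant PECs, and at 11.2, 20.6 and 25.9 CPM in wild-type and 2.74, 8.94 and 3.83 CPM in mutant EECs, rising in PECs and falling in EECs (-3.68 ± 0.76, adjusted p = 0.0132). slc26a4, the pendrin gene, rose at low levels in EECs, from 0.0488, 0.327 and 0.0969 CPM to 0.771, 2.10 and 0.892 CPM (4.04 ± 0.99, adjusted p = 0.0387), a call lost without mutant EEC replicate 2 (3.40, adjusted p = 0.118). In the sodium-potassium pump list, 1 of 16 was called (6.25%, beside 3.58%), atp1b1, with 2.08 ± 0.60 (adjusted p = 0.0909). Its call was held without wild-type PEC replicate 1, wild-type PEC replicate 3, mutant PEC replicate 3 or wild-type EEC replicate 3 and lost without each other library (adjusted p 0.106 to 0.239).

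Among genes of cellular upkeep, the ribosomal proteins had few called interactions but many at an unadjusted p under 0.05. In PECs 38 of 84 cytosolic ribosomal protein genes fell (18 with scaling by library size alone), beside 4.95% of all tested genes. In EECs none was called by edgeR, limma voom or DESeq2, and 1 was at an unadjusted p under 0.05. A called interaction was found in 2 of 84 (2.38%, beside 3.58%). By the same test 32 of the 84 were at an unadjusted p under 0.05, beside 2696 of all 21067 tested genes. Their median effect was -0.73 in PECs and -0.11 in EECs on the log2 scale, and their median interaction was 0.59, beside 0.01 over all tested genes. With scaling by library size alone, the medians were -0.46 in PECs and 0.37 for the interaction, beside -0.16 over all tested genes. RPL41, the more abundant of the called pair, was at 4651, 4576 and 2483 CPM in wild-type and 1945, 1790 and 1827 CPM in mutant PECs, and at 2595, 3858 and 2199 CPM in wild-type and 2850, 3147 and 3215 CPM in mutant EECs (1.40 ± 0.40, adjusted p = 0.0861). That call was held only without wild-type PEC replicate 3 or wild-type EEC replicate 2, with adjusted p-values from 0.126 to 0.215 without each other library. rpl26, at or below 19.8 CPM in every library, had an interaction of 2.65 ± 0.62 (adjusted p = 0.0316), a call lost with all 13 libraries (3.09, adjusted p = 0.274). Whether reads from related sequences affected the counts of a single ribosomal protein gene was not tested.

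In the list of nuclear-encoded respiratory chain subunits, 5 of 86 were called (5.81%, beside 3.58% of all tested genes), 4 positive and 1 negative. In PECs 7 of the 86 fell, beside 4.95% of all tested genes. None was called in EECs by edgeR, where 5 were at an unadjusted p under 0.05, DESeq2 called 2 and limma voom 1. cox7a2 fell in PECs from 92.8, 83.4 and 53.7 CPM to 27.9, 38.8 and 27.2 CPM, and its EEC values of 45.8, 61.6 and 57.1 CPM in wild type and 74.7, 70.6 and 71.6 CPM in mutants did not pass the test of that tissue (1.91 ± 0.40, adjusted p = 0.0139). cox4i1l, a cytochrome c oxidase subunit 4 gene, was at 27.5, 4.14 and 6.82 CPM in wild-type and 0.773, 1.64 and 0.398 CPM in mutant PECs, and at 25.3, 47.1 and 66.3 CPM in wild-type and 131, 81.7 and 144 CPM in mutant EECs (5.33 ± 0.94, adjusted p = 0.00675).

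Immediate early genes, which are induced within minutes by cell stimulation and also by tissue dissociation, had 2 called members of 26 (7.69%, beside 3.58%), both negative. nr4a3, an orphan nuclear receptor, was at 50.6, 64.1 and 78.4 CPM in wild-type and 100.2, 177 and 83.2 CPM in mutant PECs, and at 304, 379.9 and 325 CPM in wild-type and 61.1, 82.9 and 179 CPM in mutant EECs. It fell by 1.72 in EECs and had an effect of 0.68 in PECs that was not called (-2.40 ± 0.48, adjusted p = 0.0113). egr3, a zinc finger factor, rose in PECs from 39.1, 25.0 and 36.0 CPM to 99.5, 115 and 62.4 CPM and overlapped between genotypes in EECs (-2.11 ± 0.55, adjusted p = 0.0558). The egr3 call was lost without wild-type PEC replicate 2, mutant PEC replicate 1 or 2, wild-type EEC replicate 2 or mutant EEC replicate 1 or 2 (interaction -2.02 to -1.77, adjusted p 0.128 to 0.155).

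Adhesion and matrix lists held few calls. In cadherins and protocadherins 3 of 68 were called (4.41%, beside 3.58% of all tested genes), in collagens and laminins 2 of 60 (3.33%) and in annexins 1 of 15 (6.67%). The gene ENSDARG00000102824, 1 of the IDs that carry the symbol pcdh10, a protocadherin, rose in PECs from 3.65, 1.68 and 4.41 CPM to 35.7, 45.5 and 26.2 CPM and was at or below 2.42 CPM in EECs (-4.34 ± 0.77, adjusted p = 0.0048). cdh30 rose in PECs at levels up to 4.07 CPM (-4.02 ± 0.95, adjusted p = 0.0326), and its call was lost with all 13 libraries (-3.66, adjusted p = 0.116). anxa5b, an annexin that binds phosphatidylserine, rose in PECs from 3.75, 3.87 and 2.67 CPM to 11.6, 8.22 and 6.65 CPM and had an effect of -0.83 in EECs that was not called (-1.94 ± 0.43, adjusted p = 0.0212). col28a1b, a collagen gene, was at or below 0.822 CPM everywhere, and its call (adjusted p = 0.036) was lost without wild-type PEC replicate 1 (adjusted p = 0.104).

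The study's lists of genes enriched in single pancreatic cell types differed in direction. All 8 called members of 46 beta cell markers were positive (17.4%, beside 3.58% of all tested genes). The median interaction over the 46 was 0.42 (0.39 without the member that had a group at 0 counts). The called 8 were ins, pdx1, ucn3l, kcnj19a, SLC5A10, ppdpfb, abhd15a and si:ch211-243j20.2, and 5 of them were measured in both tissues. With scaling by library size alone 6 were called and the median was 0.24. In PECs 19 of the 46 fell and 1 rose, beside 4.95% and 4.03% of all tested genes, and in EECs 2 fell and 2 rose, beside 2.45% and 1.97%. Epsilon cell markers ran the other way, with 10 negative and 2 positive of 12 called among 44 (27.3%), and a median interaction of -0.41. In PECs 19 of the epsilon markers rose and 1 fell, and in EECs 14 rose and 2 fell. For nat8l, an epsilon marker and the enzyme of N-acetylaspartate synthesis, the mean was 53.7 CPM in wild-type and 986.1 CPM in mutant PECs, against 11.8 and 5.01 CPM in EECs (interaction -5.29, adjusted p = 1.65e-05). The 2 positive epsilon markers were ca6 and ntd5. ca6, a carbonic anhydrase gene, rose in both tissues, with a mean of 27.1 and 283.5 CPM in PECs and 0.494 and 61.9 CPM in EECs (3.74, adjusted p = 3.95e-05). ntd5 had a mean of 94.5 and 52.0 CPM in PECs and 4.83 and 12.23 CPM in EECs (2.40, adjusted p = 0.0144), with called effects of opposite sign.

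Alpha and delta markers were mixed. In the alpha list 7 of 47 were called (14.9%, beside 3.58% of all tested genes), 4 positive and 3 negative. In the delta list 8 of 46 were called (17.4%), 5 positive and 3 negative. The medians were 0.04 for alpha and 0.25 for delta markers (-0.13 and 0.07 with scaling by library size alone). The list of markers shared by all pancreatic endocrine types held 3 called of 49 (6.12%) with a median of 0.03 (-0.14 with scaling by library size alone). kctd12.2, a delta marker and a potassium channel tetramerisation domain gene, had opposite effects, with a mean of 863.7 CPM in wild-type and 276.2 CPM in mutant PECs, and of 16.3 CPM in wild-type and 107.7 CPM in mutant EECs (4.55, adjusted p = 1.65e-05). nat8l, ca6, ntd5 and kctd12.2 were named after their values were seen.

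**Figure D5:**
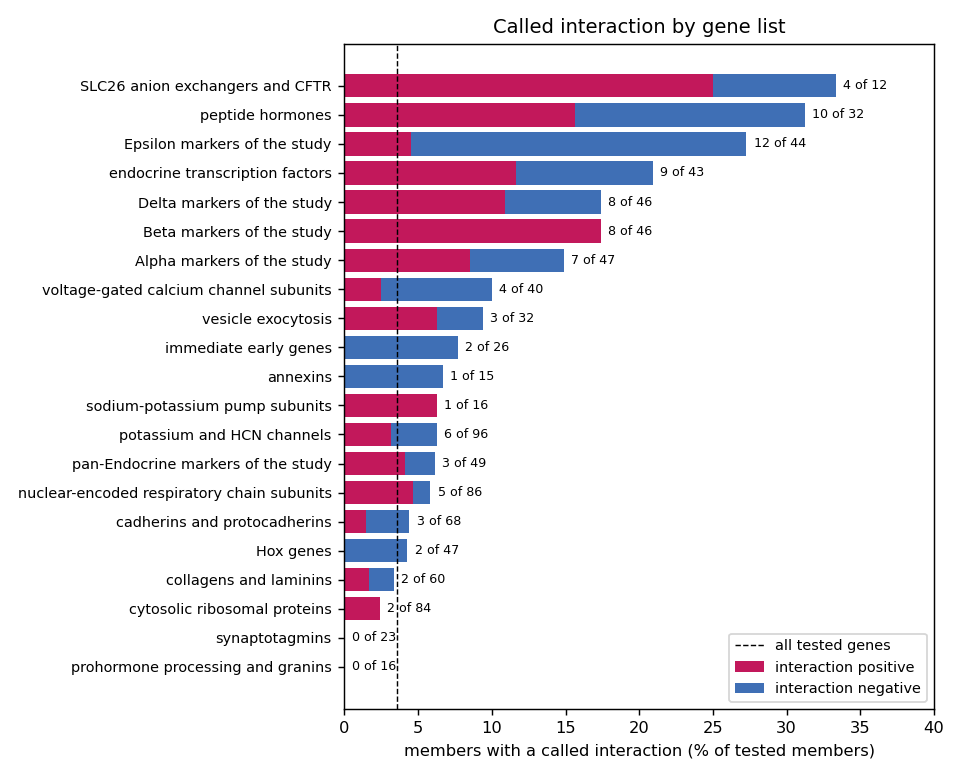
Bars give the share of the tested members of each gene list with a called interaction, in percent, split by sign, and the dashed line marks the 3.58% of all tested genes. The SLC26 and CFTR list (4 of 12), the peptide hormones, the epsilon markers and the transcription factors lie well to the right of the line. The collagens and laminins, the ribosomal proteins, the synaptotagmins and the prohormone processing genes lie to its left. For lists of their size these counts are not far from the share of all tested genes.

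For genes with a group at 0 counts the fitted value of the interaction is not a bound. Of the 755 called genes, 19 had such a group, and none of these was measured in both tissues. ucn3l, the urocortin 3 gene of beta cells, was at 7.03, 8.21 and 15.7 CPM in wild-type PECs, at 0 in all 3 mutant PEC libraries and at or below 0.595 CPM in EECs (adjusted p = 0.0235, and 1 without mutant EEC replicate 1). lpar5a, a lysophosphatidic acid receptor gene, was at 2.84, 4.00 and 2.65 CPM in wild-type PECs and at 0 in mutant PECs (adjusted p = 0.0439, and lost without mutant PEC replicate 1 at 0.106 or mutant EEC replicate 2 at 0.273). nitr3r.1l, an immune-type receptor gene, was at 1.95, 1.85 and 1.99 CPM in mutant PECs and at or below 0.0595 CPM in the other libraries (adjusted p = 0.0221, and 0.123 without wild-type EEC replicate 2). six3, gpr20, ahsg2 and angpt2b stayed at or below 4.17 CPM in every library, with adjusted p-values of 0.0292, 0.0235, 0.0298 and 0.0653, and that of angpt2b was between 0.102 and 0.211 in 8 of the 12 fits that left out a library.

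Markers of other cell types were present in the libraries, and the summed level of some lists, in CPM without TMM scaling, differed between genotypes. Over 16 enterocyte markers the summed level was 27.6 to 36.8 CPM in wild-type and 39.3 to 57.8 CPM in mutant PECs, and 1106 to 1715 CPM in wild-type and 732 to 2368 CPM in mutant EECs. The median effect of these 16 was -0.61 in PECs and 1.03 in EECs, and their median interaction was 1.83 (1.63 with scaling by library size alone). By edgeR 7 of them were at an unadjusted p under 0.05 for the interaction, beside 2696 of all 21067 tested genes. Only 1 of the 16 was measured in both tissues. The acinar cell markers (13 genes) summed to between 35.8 and 79.3 CPM in wild-type and between 17.1 and 20.3 CPM in mutant PECs, and to 18.7 to 217 CPM in EECs. Over 9 markers of enteric neurons the sum in unscaled CPM was higher in mutants of both tissues, 495.6 to 628.8 CPM against 399.5 to 435.7 CPM in PECs and 559.8 to 636.2 CPM against 326.8 to 492.9 CPM in EECs. The TMM factors were 0.8725 to 1.126 in wild-type and 1.13 to 1.152 in mutant PECs, and 0.8786 to 0.9745 in wild-type and 0.9213 to 1.03 in mutant EECs. The separation of these sums is therefore not shown to hold after scaling. The members did not share this rise in PECs, where the median effect was -0.0016 and 0 rose and 1 fell. In EECs their median effect was 0.56 and none was called. A sum is weighted towards its most abundant members, and 2 of the 9 were measured in both tissues. Epidermal markers (8 genes) reached 440.3 CPM in mutant PEC replicate 2, against 11.3 to 33.6 CPM in the other PEC libraries and 283.2 to 545.0 CPM in EECs. The keratin gene krt94 was at 16.7, 8.76 and 13.6 CPM in mutant PEC replicates 1, 2 and 3, and whether epidermal cells contributed to it was not tested. Every list had counts for each matched member in at least 1 library, and a single member had a called interaction in each of 4 lists: amy2a of acinar cells, slc15a1b of enterocytes, ahsg2 of hepatocytes and myhz2 of skeletal muscle. The part of these cells in the interactions was not tested.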

How the data were processed

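The sorted cells' RNA was copied by Smart-seq2 and sequenced as paired reads. The authors trimmed the reads, mapped them with STAR 2.5.4b to GRCz11 and counted reads on Ensembl genes, and they deposited whole-number counts of each library without normalization. The library kit does not mark strand, so genes that overlap on opposite strands cannot be told apart. No row was without a gene ID. Symbols came from the study's tables for 5831 IDs and from a reference list for 23437. 4905 IDs share a symbol with another ID.

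Counts of 12 libraries were fitted with edgeR 4.0.16 in R 4.3.3: filterByExpr by group, TMM scaling, 4 group means, a robust quasi-likelihood F test of the contrast and Benjamini-Hochberg adjustment over 21067 genes, called under 0.1. The effects within each tissue come from the same fit. In simulated data, drawn with the spread that the same model had fitted, 1 of 21 calls was on an unchanged gene. The simulation held no library that stood apart from its group, so this share does not carry over to the real calls. CPM uses the total count, without TMM, and overlap between genotypes was judged on CPM. Wild-type EEC replicate 4 was used only in an alternative.

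Named genes were pax6a, pax6b, called or abundant members (at least 100 CPM in 1 group) of the hormone, transcription factor and prohormone lists, the 8 largest interactions of each sign among genes measured in both tissues, 6 opposite genes of each orientation, the 4 largest of each sign among all called genes, and up to 2 called members of every other list, by adjusted p. Some genes of this rule are not reported here, and the other tested ones were 111. Members and lists were chosen with earlier results of these data known. Alternatives were DESeq2 1.42.0, limma 3.58.1 voom, other scalings, filters and thresholds, a replicate block, all 13 libraries and leaving out each library. Tables and figures used Python 3.11.15 with pandas 2.3.3, numpy 2.4.6 and matplotlib 3.10.9. The authors' own comparisons and enrichment results were not used here.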

Additional observations from a re-analysis of the deposited data

Results flagged for a closer look

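The same contrast of mutant against wild type gave a different effect in the 2 tissues, by the test of the difference itself, in 755 genes. Among the genes named in the text, the interaction (log2, EEC effect minus PEC effect) was 9.16 for nppal, 8.29 for ins, 7.87 for gulp1, 7.57 for cebpd, 7.34 for ntf3, 6.86 for eif4ebp3, 6.69 for PPP1R3G, 5.60 for nkx6.2, 5.40 for rorcb and 5.33 for cox4i1l. Positive interactions under 5 were 4.89 for kcnip3b, 4.89 for neurog3, 4.88 for trhr, 4.11 for pyya, 4.04 for slc26a4, 4.04 for sst2, 3.27 for cacna2d4, 2.84 for kcnip1b, 2.65 for rpl26, 2.40 for gcgb, 2.15 for cplx2, 2.08 for atp1b1, 1.99 for pdx1, 1.91 for cox7a2, 1.77 for cdx1b, 1.58 for rims1a, 1.40 for RPL41 and 1.22 for hnf1ba. The negative interactions below -4 were -7.56 for col28a1b, -7.09 for plin1, -6.58 for sox1, -6.51 for krt94, -6.30 for sned1, -5.57 for cfd, -5.46 for npy, -5.16 for atp8b3, -4.52 for ptgs2a, -4.34 for pcdh10, -4.10 for insl5a and -4.02 for cdh30. Those between -4 and -3 were -3.75 for phf24, -3.68 for cftr, -3.57 for mki67, -3.42 for insl5b, -3.40 for plcxd3, -3.35 for hoxc5a, -3.33 for itga6l, -3.12 for hoxc3a and -3.02 for mlnl, and the smallest were -2.96 for gata6, -2.44 for pyyb, -2.40 for nr4a3, -2.28 for cacna1da, -2.11 for egr3, -2.01 for etv1, -1.98 for insm1b and -1.94 for anxa5b. For 8 genes with a group at 0 counts the adjusted p of edgeR's quasi-likelihood test stands in place of a fold, 0.0653 for angpt2b, 0.0235 for gpr20, 0.0298 for ahsg2, 0.0221 for nitr3r.1l, 0.0235 for cxcl8b.1, 0.0292 for six3, 0.0439 for lpar5a and 0.0235 for ucn3l.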

How the results depend on the processing

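No called interaction changed sign under any of the 25 alternatives, and 41 of the 65 called genes named here were called in every alternative that gave them a value, whereas 24 were lost in at least 1. Of the 46 named genes without a call, 16 reached the threshold in at least 1 alternative. The filter of 10 CPM left 17 of the 111 named genes untested. Each group had 3 libraries, and tissue, age and dissociation cannot be told apart. The number of called interactions was 1379 with DESeq2 (610 positive, 769 negative, 121 with opposite effects), 480 at an adjusted p under 0.05 (237, 243 and 33, with 202 measured in both tissues), and 1644 with replicate 3 of both PEC groups left out (832 and 812, with 961 measured in both tissues). Scaling by library size alone gave 266 positive and 443 negative. Separate fits of each tissue gave 42 genes with opposite effects. Measured in both tissues were 572 called genes at a mean of 1 CPM and 93 at 50 CPM. Leaving out each library in turn gave 503 to 1017 calls, 242 to 498 positive, 251 to 519 negative, 36 to 71 opposite and 201 to 509 measured in both tissues. Leaving out the 2 most abundant IDs without a symbol, also chosen after the data were seen, gave 764. Calls lost with limma voom were those of insl5b, trhr, lpar5a, ahsg2, cacna2d4, cacna1da and atp1b1, those lost without a filter were of gcgb, insl5b, trhr, cfd and ptgs2a, and those lost with library size alone of gcgb, hnf1ba, atp1b1 and RPL41.

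Same-numbered libraries deviated from their group means with correlations from -0.256 to 0.0219, so the numbers do not pair the samples. A replicate block gave 435 calls (225 positive, 210 negative, 36 opposite, 182 measured in both tissues), 417 of them shared with the 755. Of the 12 libraries, only wild-type EEC replicate 3 correlated best with the library of its own number in the other genotype.

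Only interactions that were not called changed sign. For neurod1 they were 0.004 with limma voom, 0.016 with upper quartiles, 0.043 without a filter, 0.003 with a filter of 10 CPM, 0.088 with all 13 libraries and 0.045 with both PEC replicates 3 left out. That last alternative gave -1.09 for pcsk1, -0.73 for pnoca, -0.16 for adm2a, -1.13 for pcsk2 and 0.004 for vgf. Library size alone gave -0.044 for nkx2.2a and -0.030 for pcsk1, the replicate block -0.063 for pcsk1 and -0.018 for pnoca, and isl1 was at 0.001 without a filter and 0.083 with all 13 libraries. Leaving out each library in turn moved the interaction from -0.074 to 0.13 for neurod1, -0.025 to 0.48 for nkx2.2a, -0.64 to 0.56 for pcsk1, -0.29 to 0.12 for isl1, -1.18 to 1.88 for pnoca, -0.72 to 1.59 for pcsk2, -0.55 to 0.24 for vgf, -0.15 to 1.24 for nmbb, -7.63 to 1.59 for ccka, -5.93 to 0.22 for sst1.1, -0.55 to 0.052 for scg5, -0.072 to 3.39 for nmba and -0.010 to 0.65 for rfx6. The cause was not tested for any of these.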
